A study of Mus musculus with 18 samples.

Results

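Chromatin accessibility in mouse skeletal muscle myocytes was compared between 2 lists of ATAC-seq peaks, each called on 3 pooled samples after 24 h of myogenic differentiation. ATAC-seq uses a transposase that inserts adapters into open DNA, so a peak marks a stretch of accessible chromatin. The members were all peaks of the lists deposited for wild-type (ATAC_WT_DM) and MyoD knockout (ATAC_MKO_DM) myocytes on chromosomes 1 to 19. They numbered 109753 and 86575, or 196328 of the 400124 peaks that the 4 lists of the series held over all chromosomes. A peak was called shared when 1 bp or more of it lay in a peak of the other list. The remaining 2 lists, also of 3 samples each, came from wild-type and MyoD knockout myoblasts without that treatment and served for reference. The mice were labelled wild type or MyoD-null, and how MyoD was removed, or whether replicates came from separate animals, was not given in the sources used here. RNA-seq samples of the C2C12 line belong to the same series and were not analysed here.

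MyoD is a transcription factor of the basic helix-loop-helix class that binds E-box sequences, can bind DNA in closed chromatin and directs cells into the skeletal muscle lineage. Myoblasts are proliferating precursors of muscle. When growth factors are withdrawn they leave the cell cycle, become myocytes and later fuse into myotubes, while enhancers of contractile genes open. Related factors such as Myf5 and myogenin act in the same lineage.

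The genotypes of both myocyte lists can be read in opposite ways. Every peak in the list deposited as wild type bears a name that reads MKO-DM, and every peak in the list deposited as MyoD knockout bears a name that reads WT-DM. The names in the myoblast lists match their labels, and they lack a prefix that both myocyte lists carry. Differences between stages therefore cannot be told apart from any difference in processing. Each list is called here by the genotype under which it was deposited, wild type or MyoD-null. If the peak names hold, each value below belongs to the opposite genotype and its size is unchanged. Only the sign of a difference between genotypes changes: peaks without overlap in the other list, counted as wild type minus MyoD-null, came to 23701 as deposited and to -23701 by peak names. With 1 pooled list per group there was no error between replicates and no test of the groups. Intervals are 95% Wilson intervals of counting error.

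The genome-wide background, in reads covering a base, was recovered from the lists as 5.29 for the list deposited as wild type and 6.34 for the list deposited as MyoD-null. The least pileup that could be listed over these backgrounds was 15 and 17 reads. The myoblast backgrounds were higher, at 8.18 (wild type) and 8.54 (MyoD-null). The longer myocyte list had the lower background. Absence of a peak therefore means that none was detected at this depth, and the chromatin may still be open.

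Most of the accessible sites were common to both lists, and the sites of 1 list alone were mainly in the list deposited as wild type. There, 35067 peaks (32.0%, 31.7 to 32.2) lacked a counterpart in the list deposited as MyoD-null. In the opposite direction it was 11366 peaks (13.1%, 12.9 to 13.4). The lists covered 66.3 and 50.9 Mb. They had 43.3 Mb in common, which was 65.4% of the bases deposited as wild type and 85.1% of those deposited as MyoD-null. When both lists were cut to 86575 peaks by −log10 p, the counts became 20039 (23.1%) and 19277 (22.3%), where equal lengths hold both counts close together by construction.

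Few members lay close to the limit of the 1 bp rule, but stricter rules moved more. Peaks without overlap numbered 39033 (wild type) and 15855 (MyoD-null) when summits within 250 bp were required. With a reciprocal overlap of 50% they numbered 43017 and 19839. Overlaps of 50 bp or less accounted for 75 and 73 of the shared peaks in the lists deposited as wild type and MyoD-null. Among the peaks without overlap, 46 and 48 had a peak of the other list within 50 bp. More often the nearest peak was far: the median gap was 5.70 kb for peaks without overlap deposited as wild type and 3.30 kb for those deposited as MyoD-null. Gaps over 10 kb were found for 33.2% (32.7 to 33.7) and 21.0% (20.3 to 21.8). Gaps of the first set were measured to a list of 86575 peaks and those of the second to 109753. The part of this unlike length was not tested.

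Peaks without overlap became rarer with strength in both lists. Fold enrichment is the authors' ratio of the pileup at a summit to its local background, and each list was divided into 10 equal classes of it. In the weakest class, 54.2% of peaks deposited as wild type and 31.2% of those deposited as MyoD-null had no overlap. In the strongest class the shares were 6.79% (6.33 to 7.27) and 0.312% (0.214 to 0.453), that is, 745 and 27 peaks. Strong sites in the list deposited as MyoD-null were thus nearly always listed in the other myocytes as well. The list of those other myocytes was the longer one, and these shares were not evened for length. At a fold enrichment of 10 or more, 263 of 4744 peaks of the first list and 4 of 1643 of the second had no overlap.

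**Figure D1:**
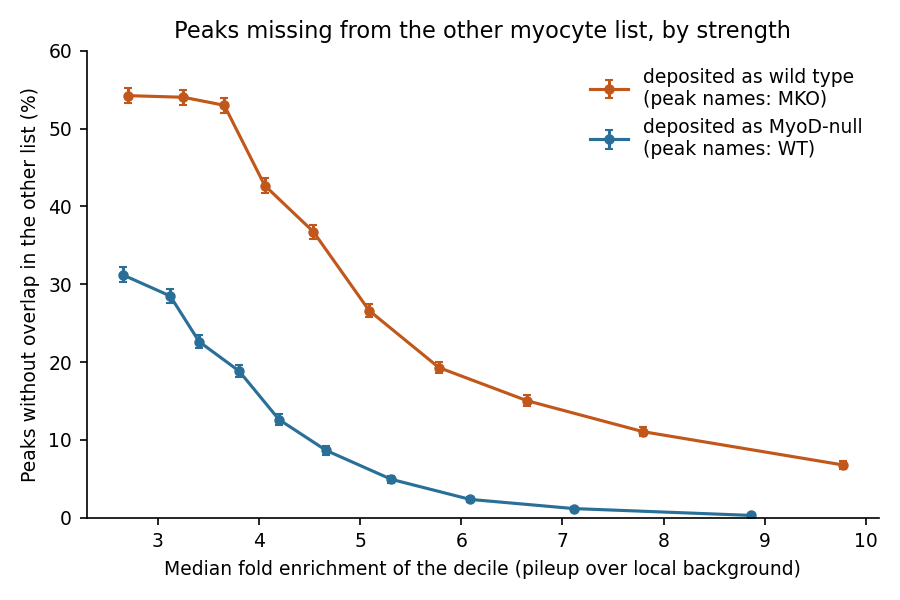
Share of peaks without overlap in the other myocyte list (vertical axis, percent) against the median fold enrichment of each of 10 equal classes of a list; bars are 95% Wilson intervals. Both curves fall with strength, from 54.2% to 6.79% in the list deposited as wild type and from 31.2% to 0.312% in the list deposited as MyoD-null.

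Width changed in the same manner. Of peaks up to 250 bp wide, 71.0% of those deposited as wild type and 39.7% of those deposited as MyoD-null had no overlap. Of peaks over 1000 bp, 3.07% and 0.182% had none, the latter being 20 of 10972 peaks. The median width of peaks without overlap was 345 bp in the list deposited as wild type and 296 bp in the other, against 608 and 526 bp for shared peaks. At their summits the peaks without overlap had a median of 30 and 29 reads, against 56 and 50 for shared peaks.

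Peaks without overlap were then set against the detection limit of the other list. Their reads were scaled by the genome-wide backgrounds and compared with the least number of reads listed there over the same relative local background. At least 2 times that number was reached by 11151 peaks (31.8%) in the list deposited as wild type and by 946 (8.32%) in the MyoD-null list. The order of these shares depended on the scale. At regions shared one to one, reads per background were 1.26 times higher in the list deposited as wild type, and scaling by that ratio gave 5370 peaks (15.3%) and 3206 peaks (28.2%). At least 4 times the limit was reached by 683 and 6 peaks under the first scale and by 118 and 34 under the second.

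Listing in myoblasts, which the overlap rule did not use, differed between the sets. Of the peaks without overlap deposited as wild type, 22506 or 64.2% (63.7 to 64.7) were listed in neither myoblast list and 6876 or 19.6% (19.2 to 20.03) in both. Of those deposited as MyoD-null, 4749 or 41.8% (40.9 to 42.7) were in neither and 4239 or 37.3% (36.4 to 38.2) in both. Shared peaks were in both myoblast lists in 86.7% and 86.3% of cases. They were also stronger, with median folds of 5.50 and 4.69 against 3.82 and 3.38 for the peaks without overlap.

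The contrast was wider among strong peaks. In the upper quartile of fold enrichment, 2703 of 27441 peaks deposited as wild type (9.85%) had no overlap, against 32.0% of the whole list. Of these 2703, 1566 or 57.9% (56.1 to 59.8) were in neither myoblast list. In the list deposited as MyoD-null the upper quartile held 206 peaks without overlap among 21647 (0.952%), against 13.1% of the whole list. At equal list lengths, chosen after seeing the data, the counts were 1902 and 484. Over all peaks at that length, 23.1% (wild type) and 22.3% (MyoD-null) had no overlap. Of the 206, 155 or 75.2% (68.9 to 80.6) were in both myoblast lists and 18 or 8.74% (5.60 to 13.4) in neither. Upper-quartile peaks with an overlap were in both myoblast lists in 96.3% (wild type) and 98.98% (MyoD-null) of cases. Strong peaks without overlap were thus in both myoblast lists at a lower share than strong shared peaks in either list, and the share was lowest, 25.3%, in the list deposited as wild type. The background reached by each list is given above, and its part in this contrast was not tested.

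**Figure D2:**
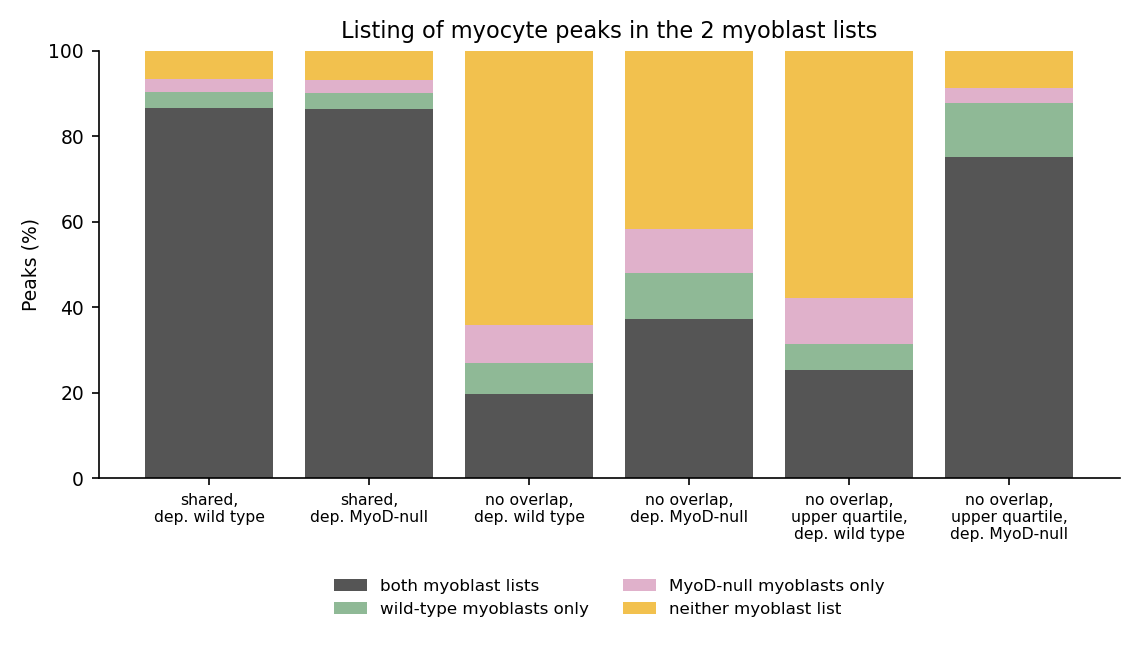
Stacked bars give the percent of myocyte peaks listed in both, one or neither of the myoblast lists, for shared peaks, peaks without overlap and those of the upper quartile of fold enrichment ("dep." stands for deposited as). Among the latter, 57.9% of peaks deposited as wild type and 8.74% of those deposited as MyoD-null were in neither myoblast list.

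Peaks found in 1 myocyte list and 1 myoblast list alone allow both readings of genotype to be set side by side. Of the peaks deposited as wild type, 2554 matched wild-type myoblasts alone and 3131 matched MyoD-null myoblasts alone. Of the peaks deposited as MyoD-null, 1216 matched wild-type myoblasts alone and 1162 matched MyoD-null myoblasts alone. Myocyte and myoblast genotypes were the same for 3716 of these peaks as deposited (46.1%, 45.0 to 47.2) and for 4347 by peak names (53.9%, 52.8 to 55.0). These intervals count peaks, which are not independent, from 1 list per group, so they cannot decide between the readings. Most of these peaks were deposited as wild type, and both counts from the list deposited as MyoD-null were close. In the upper quartile of fold enrichment, 163 and 291 peaks deposited as wild type matched wild-type and MyoD-null myoblasts alone. For peaks deposited as MyoD-null it was 26 and 7. The MyoD-null myoblast list was the longer one, with 100192 peaks against 96420. Among shared peaks deposited as wild type, however, 2787 matched wild-type myoblasts alone and 2330 matched MyoD-null myoblasts alone. For shared peaks deposited as MyoD-null it was 2860 and 2383. The part of list length in these counts was not tested.

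The strongest sites of each list alone showed how these classes look at single loci (mm9 coordinates). The first in the list deposited as wild type was chr16:46251674-46252302, with a fold enrichment of 17.3 from 117 reads (exact Poisson interval 96.8 to 140). It was listed in wild-type myoblasts at a fold of 3.27 and 29 reads, and not in MyoD-null myoblasts. Over its relative local background, 18 reads would have reached the limit of the list deposited as MyoD-null. Its reads per background were 8.25 times (6.82 to 9.89 by counting error) the highest number that could have gone unlisted there. With the scale of the shared regions the ratio was 6.52. Both take a summit at the limit as always listed. The nearest peak of that list lay 151037 bp away.

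Of the 10 strongest sites in the list deposited as wild type, 4 were in neither myoblast list. These were chr10:16509402-16509996 with a fold of 14.95, chr12:27920441-27921233 with 14.6, chr7:37355964-37356812 with 14.02 and chr7:63423933-63424703 with 13.8. Both myoblast lists held 3 of the 10, at lower folds. At chr16:86015474-86016265 the fold was 14.96 in these myocytes, with 3.16 and 3.35 in the wild-type and MyoD-null myoblasts. At chr11:45580360-45581123 it was 13.99, 3.92 and 3.35, and at chr10:32746812-32747391 it was 13.8, 3.16 and 4.51. The site at chr3:115440717-115441358 (13.8) was listed in MyoD-null myoblasts alone, at 3.35. The one at chr11:72876640-72877156 (13.7) was listed in wild-type myoblasts alone, at 3.16. No myoblast list gave any of the 10 sites a fold above 4.51. The choice of sites by their fold in this myocyte list favours lower folds elsewhere. Their reads in this list were 6.42 to 8.25 times the highest unlisted number by background, or 5.07 to 6.52 times on the scale of the shared regions.

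The 10 strongest sites in the list deposited as MyoD-null had lower folds, from 8.80 to 10.9. Their reads were 3.81 to 5.24 times the highest unlisted number by background, below all 10 sites of the other list, but 4.82 to 6.62 times on the scale of the shared regions, where the ranges of both lists overlapped. All but 1 were listed in wild-type myoblasts, and 5 of those 9 also in MyoD-null myoblasts. The exception was chr9:104884307-104884918, with a fold of 10.4 from 75 reads (59.0 to 94.0). Wild-type myoblasts alone held 4 sites. At chr4:88409317-88409884 these myocytes had a fold of 10.9 and the wild-type myoblasts 9.04, and at chr4:88403047-88404017 it was 9.04 and 9.80. At chr5:105000361-105001102 it was 10.6 and 7.63, and at chr5:110180294-110181161 it was 8.86 and 3.70. These 4 sites were in a myocyte list of the same genotype as the myoblasts by peak names, and of the opposite genotype as deposited. The 2 sites on chromosome 4 lie within 10 kb of each other.

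The other 5 sites were listed everywhere except in the myocytes deposited as wild type. At chr11:8285812-8286486 the fold was 9.22 in the myocytes deposited as MyoD-null, against 7.32 (wild type) and 8.80 (MyoD-null) in the myoblast lists. At chr10:20142910-20143455 it was 8.80, 7.37 and 6.81. At chr9:78077124-78078139 it was 10.1, 4.47 and 4.93, at chr3:141536809-141537320 it was 9.40, 4.68 and 4.51, and at chr7:136145830-136146479 it was 8.84, 4.25 and 2.83. At all 5 the highest fold was that of the myocytes, an order favoured by choosing sites for a high fold in that list.

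**Figure D3:**
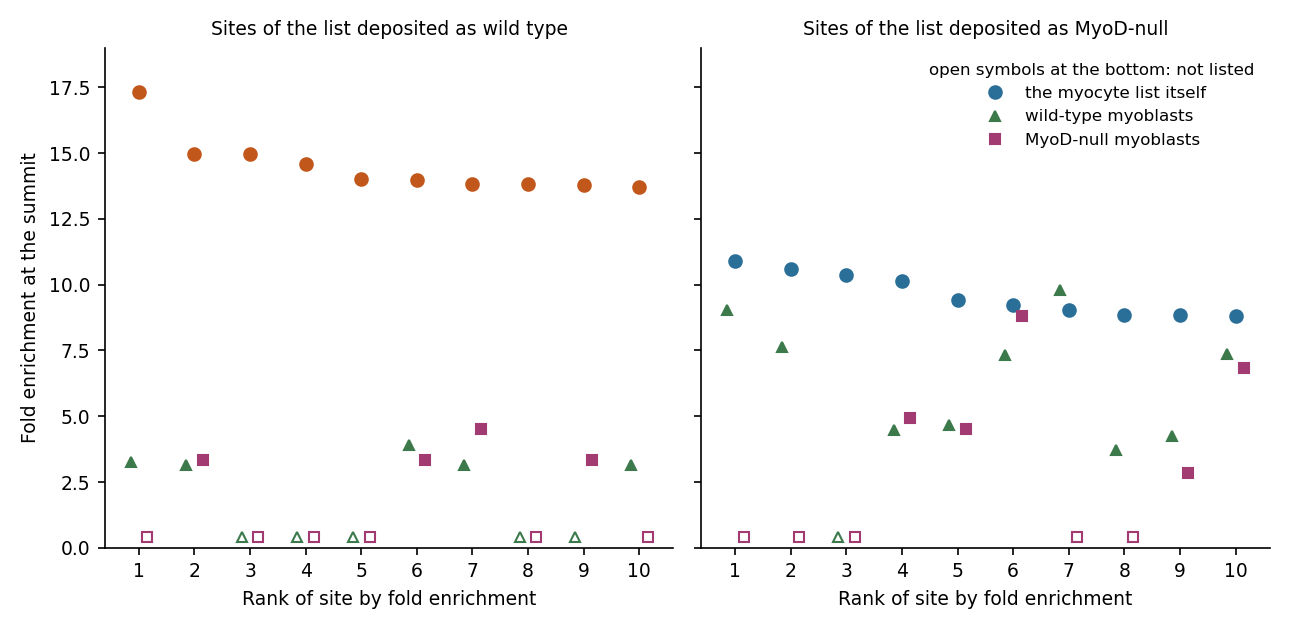
Fold enrichment at the summit (vertical axis) of the 10 strongest sites without overlap in each myocyte list, ordered by rank, with the fold in both myoblast lists; open symbols at the bottom mark lists without a peak there. Sites deposited as wild type lie between 13.7 and 17.3 with myoblast folds of at most 4.51, while myoblast folds reach 9.80 at sites deposited as MyoD-null.

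At shared sites the lists were much alike in strength. One peak of each list overlapped exactly 1 peak of the other at 71726 regions, 65.4% of the peaks deposited as wild type and 82.8% of those deposited as MyoD-null. Their summits lay a median of 40 bp apart, and 95.7% were within 250 bp. The median fold enrichment was 5.54 in the list deposited as wild type and 4.75 in the other, and the median of the ratio at each region was 1.12 (log2 0.16). Across regions, which are not independent replicates, the log2 folds had a Pearson r of 0.74. Part of this is shared by construction, since all regions come from the same 2 lists and only listed regions enter. Peaks deposited as wild type were the wider ones at 65.7% of regions, with median widths of 601 and 524 bp.

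Ratios were then centred on their median, and a region was called different at 2-fold or more. Within 1.5-fold lay 87.0% of the regions. The list deposited as wild type was at least 2-fold higher at 1120 regions (1.56%, 1.47 to 1.66). The list deposited as MyoD-null was at least 2-fold higher at 503 (0.701%, 0.643 to 0.765). Without centring the counts were 2160 and 178, so the split between the directions depends on the scale.

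**Figure D4:**
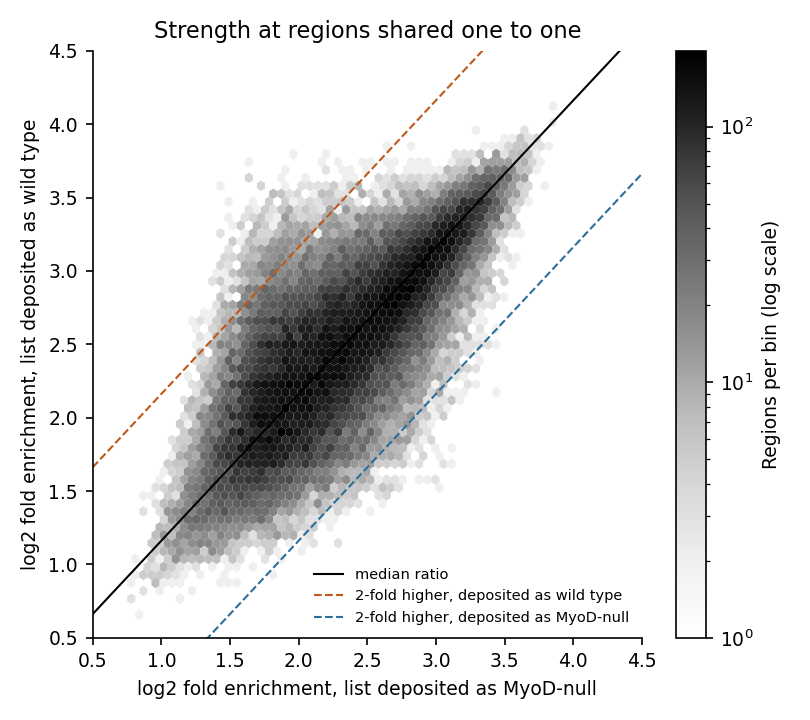
Fold enrichment (log2) of 71726 regions shared one to one, in the list deposited as MyoD-null (horizontal axis) and the list deposited as wild type (vertical axis); grey gives the number of regions per bin on a log scale. The solid line is the median ratio of 1.12 and the dashed lines mark 2-fold limits around it, beyond which lie 1120 and 503 regions.

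The regions that differed were followed into myoblasts as well. The listing of a region was that of its peak deposited as wild type. The median width of those peaks was 700 bp where that list was higher and 317 bp where the other was. The part of width in these shares was not tested. Among the 1120 regions higher in the list deposited as wild type, both myoblast lists held 815 (72.8%, 70.1 to 75.3) and neither held 171 (15.3%, 13.3 to 17.5). Of the 503 regions higher in the list deposited as MyoD-null, 449 or 89.3% (86.3 to 91.7) were in both and 16 or 3.18% (1.97 to 5.10) in neither. Read the other way, 3.62% (3.12 to 4.19) of the 4728 shared regions found in neither myoblast list were higher in the longer list, deposited as wild type, and 0.338% (0.208 to 0.549) in the other. For the 62004 regions in both myoblast lists it was 1.31% (1.23 to 1.41) and 0.724% (0.660 to 0.794). Regions held by MyoD-null myoblasts alone (2277) were higher in the list deposited as wild type in 3.91% (3.19 to 4.79) of cases. For those held by wild-type myoblasts alone (2717) it was 1.66% (1.24 to 2.21). In the same order, 0.615% (0.367 to 1.03) and 0.883% (0.594 to 1.31) were higher in the list deposited as MyoD-null.

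Coordinates of the shared regions are those in the stronger list. Of the 5 with the largest surplus in the list deposited as wild type, the first was chr1:56146078-56146882. Its fold was 14.8 from 113 reads there and 3.27 from 23 reads in the list deposited as MyoD-null, a centred ratio of 4.05. Both myoblast lists lay between, at 4.90 (wild type) and 6.29 (MyoD-null). At chr6:71457073-71457668 the folds in the myocytes were 11.9 and 2.73, and no myoblast list held a peak. At the remaining 3, chr4:53627517-53628316, chr6:140998567-140999376 and chr15:9201545-9202309, the centred ratios were at most 3.86. All 3 were listed in both myoblast lists, at folds of 2.61 to 5.24.

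The 5 regions with the largest surplus in the list deposited as MyoD-null were all in both myoblast lists. At chr12:111011948-111012676 the fold was 12.9 from 94 reads, against 2.70 from 16 reads in the list deposited as wild type, a centred ratio of 5.36. Wild-type and MyoD-null myoblasts had folds of 7.30 and 7.13 there. At chr7:123243498-123244190 the myocyte folds were 11.8 and 2.86 and the myoblast folds 9.59 and 7.65. At chr1:40922975-40923899 they were 9.57 and 2.70 in myocytes and 4.56 and 3.74 in myoblasts. The other two, chr5:31135611-31136234 and chr9:40728100-40728715, had centred ratios of 3.32 and 3.22. At all 5, the lowest of the 4 folds was that of the myocytes deposited as wild type. The peaks there were 200 to 391 bp wide and the summits held 16 to 20 reads. Ranking by the ratio itself favours a low fold in that list, so this order is no separate result.

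Peaks without overlap were spread over all autosomes. Their share per chromosome ran from 28.9% (27.9 to 29.9) on chromosome 11 to 34.5% (33.4 to 35.5) on chromosome 1 in the list deposited as wild type. In the list deposited as MyoD-null it ran from 11.9% (11.0 to 12.8) on chromosome 8 to 14.9% (13.9 to 16.0) on chromosome 6. On each of the 19 chromosomes the list deposited as wild type was the longer one, by 1.22 to 1.33 times.

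**Figure D5:**
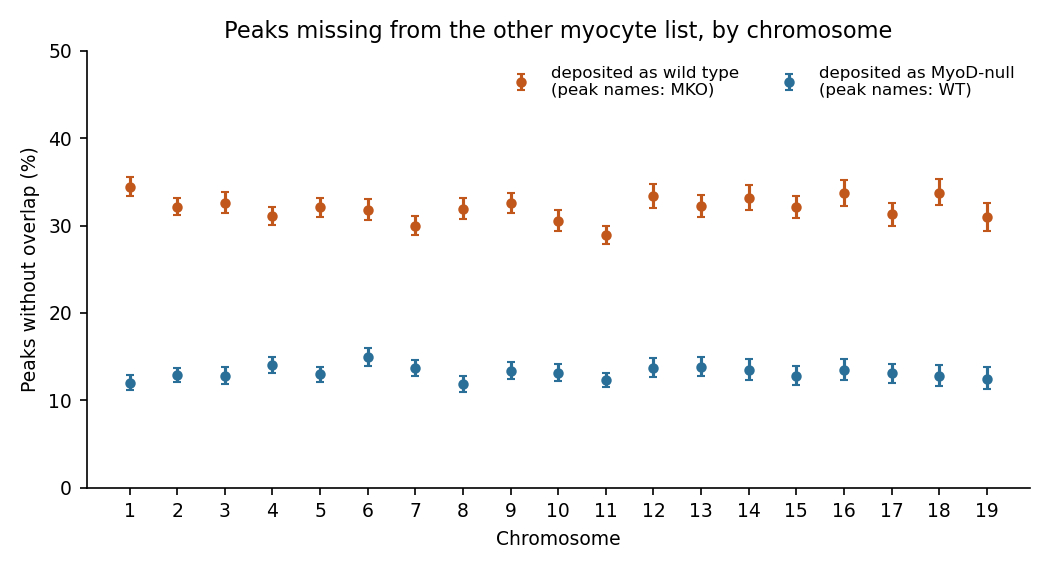
Share of peaks without overlap in the other myocyte list (vertical axis, percent, with 95% Wilson intervals) on each autosome. The list deposited as wild type lies between 28.9% and 34.5% and the list deposited as MyoD-null between 11.9% and 14.9% on all 19 chromosomes.

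Neighbouring peaks tended slightly to the same class. In the list deposited as wild type, the adjacent peak within 10 kb had no overlap in 35.3% of cases for peaks without overlap and in 28.4% for shared peaks. In the list deposited as MyoD-null these shares were 14.9% and 12.7%. Windows of 100 kb with 5 or more peaks without overlap numbered 1815 of 17106 in the first list and 72 of 16001 in the second. The shares of all peaks without overlap were 32.0% and 13.1%. The fullest window of the first list, chr17:5200001-5300000, held 15 such peaks of 23, where the list deposited as MyoD-null had 9 peaks and both myoblast lists 16. At chr4:106600001-106700000 it was 14 of 19 against 7 peaks, with 11 (wild type) and 9 (MyoD-null) in the myoblast lists. At chr5:140500001-140600000 it was 13 of 16 against 3, with 3 and 9 in them. In the list deposited as MyoD-null, chr8:35800001-35900000 held 8 peaks without overlap of 15, against 6 peaks in the other myocytes and 8 in each myoblast list. The next window, chr11:3000001-3100000, held 8 of 20, against 14 peaks in the other myocytes. The myoblast lists had 26 (wild type) and 29 (MyoD-null) there. At chr8:97500001-97600000 it was 7 of 15, with 12 and 14 in the myoblast lists. In that window the list deposited as wild type had more peaks, 18.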

How the data were processed

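Peak lists were the only values used. Per the submitters' processing notes, the build was mm9 and the tools MACS2 and deepTools; per the peak names, replicates were merged with a MAPQ30 tag before calling. The aligner, the settings of the caller and any read shift were not given in the sources used here. The deposited fold enrichment is a ratio of pileup to local background. The −log10 p and −log10 q values were deposited by the authors, with q of 0.01 or lower, and the deposited score was not used.

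Reads at summits and local backgrounds were solved from each deposited fold and p, taking fold as (pileup + 1) / (background + 1) with Poisson p. They returned the deposited −log10 p within 0.05 for 100.0% of peaks. The genome-wide background came from the spacing of the 12 commonest folds. Read totals are unknown. Overlap counts, one-to-one pairs and the recovery of backgrounds and reads were tested on simulated peaks, whose folds and p came from the same formula. The other steps were not tested in this way.

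Overlaps were computed in Python 3.11.15 (statsmodels 0.14.6, scipy 1.17.1, pandas 2.3.3, numpy 2.4.6, matplotlib 3.10.9), with counts checked against bedtools 2.31.1. Coordinates count from 1. Named sites were the 10 strongest peaks without overlap, the 5 shared regions with the largest ratio (fold of 3 or more in the stronger list) and the 3 fullest windows of 100 kb, in each direction. Alternatives were a −log10 q of 5, a fold of 5, equal lengths, other overlap rules, other ratio limits and scales, and chromosomes X and Y. Members and lists were chosen with earlier results of these data known. Peaks were not assigned to genes, since the gene tables at hand carry GRCm38 coordinates, and the planned gene lists, markers and sequence features were not run. Repeats and artefact regions were not filtered out.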

Additional observations from a re-analysis of the deposited data

How the results depend on the processing

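No paired analysis was possible because each group was deposited as 1 pooled list, and for the same reason no replicate could be left out. Genotypes read from peak names turned the net of 23701 peaks into -23701, and equal lengths gave 762, with 20039 and 19277 peaks without overlap in the lists deposited as wild type and MyoD-null. A fold of at least 5 in both lists gave 21830 of 51325 and 4830 of 34303, where missing peaks may be listed at lower folds. A reciprocal overlap of 50% raised the count deposited as MyoD-null to 19839. The 2-fold counts at shared regions, 1120 (higher in the list deposited as wild type) and 503, became 5538 and 3820 with a limit of 1.5, and 2160 and 178 without centring. Recovered reads per background, an alternative chosen after seeing the data, gave 2854 and 1545. The median log2 ratio of 0.162 moved to 0.158 with a −log10 q of at least 5 and to 0.339 for reads per background. The share of peaks without overlap in neither myoblast list, 64.2% and 41.8%, became 63.1% and 38.6% with a −log10 q of at least 5, and 62.4% and 39.1% with summits within 250 bp. With all lists at equal length it was 68.9% and 42.1%. In the upper quartile deposited as wild type, equal lengths (chosen after seeing the data) moved the share in neither myoblast list from 57.9% to 63.6% and the share in both from 25.3% to 20.9%. For the list deposited as MyoD-null these shares went from 8.74% to 6.40% and from 75.2% to 78.5%, while its count of such peaks rose from 206 to 484. Repeating the counts of peaks without overlap with a −log10 q of at least 5, summits within 250 bp, or chromosomes X and Y moved both by less than 1.5 times.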

Other observations

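Stretches in which every consecutive peak of a list lacked overlap were counted after the values had been seen. The list deposited as wild type had 498 such stretches of 5 or more peaks among 22384 of any length. The list deposited as MyoD-null had 12 among 9629. Over all peaks, 32.0% and 13.1% had no overlap, and a higher share by itself gives longer stretches. Its part in this contrast was not tested. The longest in the first list held 14 peaks over 281 kb, chr2:76537696-76818602, where the list deposited as MyoD-null had no peak and each myoblast list had 3. Its peaks were not strong by fold enrichment (median 2.37, from 1.96 to 4.22), but their local background was high. The median was 15.5 reads, and it ranged from 7.54 to 38.6, against 5.29 genome-wide. Summits held 25 to 77 reads.

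The next 2 stretches, chr2:93487534-93611448 and chr5:140513740-140577944, held 12 peaks each, with median folds of 4.28 and 3.31. On chromosome 5, 6 of the 12 were listed in MyoD-null and 1 in wild-type myoblasts. The longest stretch in the list deposited as MyoD-null was chr6:114444758-114525167, with 8 peaks at folds of 3.00 to 5.04. The other myocytes and MyoD-null myoblasts had no peak in that span, and wild-type myoblasts had 2.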
